A study of Mus musculus with 167 samples.

Results

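The heart of C57Bl/6 mice was examined at month 6 after whole thorax lung irradiation (WTLI), in which a single dose of radiation was given to the chest, and compared with the heart of sham-irradiated C57Bl/6 mice. The libraries were chosen by strain, tissue and irradiation status in the sample labels, which gave 20 of the 167 libraries of the series: 5 irradiated and 15 sham. The irradiated libraries came from 4 males (replicates 1 to 4) and 1 female (replicate 5), and the sham libraries from 8 males and 7 females. The field covered the thorax, so that the heart lay within it as well as the lung, and the rest of the body was shielded. The irradiated mice were survivors to the study endpoint, since many irradiated mice had died before it, and their hearts are therefore not a sample of all the mice exposed. The study also profiled lung, brain, red blood cells (RBC) and white blood cells (WBC), and a second strain, C3Hf/Sed/Kam (C3H), at month 4. Heart miRNA was extracted from homogenised tissue, so that fewer cells of a type and less RNA per cell cannot be told apart. The comparison asks which miRNAs differed in abundance in the heart of animals that lived for months after thoracic exposure.

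MicroRNAs are short RNAs that guide the Argonaute protein to messenger RNAs, mainly through pairing of the seed, bases 2 to 8 counted from the 5′ end, and thereby lower the output of many targets. Both arms of a hairpin precursor can yield a mature miRNA, named 5p and 3p, and miRNAs with the same seed form a family with overlapping targets. Heart muscle is known for abundant miR-1, miR-133, miR-208 and miR-499, and endothelium for miR-126. In injured tissue, miR-21 is known from fibroblasts and fibrosis, the miR-34 family as transcriptional targets of p53, miR-146 as a feedback inhibitor of NF-κB signalling and miR-210 as a target of the hypoxia-inducible factor.

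The table listed 1915 mature miRNAs, of which 312 passed the filter on low counts in the heart libraries and were tested. Abundance is given as RPM (miRNA reads scaled to a common library total), the count of a miRNA divided by the total miRNA count of its library and multiplied by 1000000. Changes are log2 differences, irradiated minus sham, from limma-voom on quantile-normalised values, with Benjamini-Hochberg adjusted p-values over the 312 miRNAs. Calls were made at an adjusted p-value under 0.05, and separately with a fold minimum added, a log2 difference of 1.17 or more in either direction.

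In all, 11 mature miRNAs passed the adjusted p-value, and their sequences and those of close family members are shown first because the seeds place them in families. The mature sequences and hairpin positions are from RefSeq (mouse build GRCm38.p6), the seed is in capitals, and 269 of the 312 tested miRNAs matched an entry. The miR-10 pair and the miR-21 arms were as follows.
miR-10b-5p: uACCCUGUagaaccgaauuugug
miR-10a-5p: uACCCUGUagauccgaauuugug
miR-21a-5p: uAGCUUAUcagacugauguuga
miR-21a-3p: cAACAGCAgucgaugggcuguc
Both arms of miR-34b, of which the 5p arm was not called, and miR-34a-5p, also not called, had these sequences.
miR-34b-3p: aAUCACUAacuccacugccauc
miR-34b-5p: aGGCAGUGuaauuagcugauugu
miR-34a-5p: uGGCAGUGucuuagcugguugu
The miR-146 and miR-132/212 pairs are shown because 1 member of each was called and the other was not.
miR-146b-5p: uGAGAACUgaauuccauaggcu
miR-146a-5p: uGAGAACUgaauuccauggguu
miR-212-3p: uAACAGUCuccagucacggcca
miR-132-3p: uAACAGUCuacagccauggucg
The remaining called miRNAs with an entry were the following.
miR-210-3p: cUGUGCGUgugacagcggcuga
miR-503-5p: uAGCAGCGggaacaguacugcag
miR-340-5p: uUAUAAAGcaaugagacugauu
miR-150-5p and miR-34c-5p were also called.

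Among the tested miRNAs, miR-10b-5p shared its seed with miR-10a-5p, miR-146b-5p with miR-146a-5p, miR-212-3p with miR-132-3p and miR-34b-3p with miR-34c-3p. miR-10b-5p and miR-10a-5p differ at 1 base, which lies at position 12, and miR-146b-5p and miR-146a-5p at 2 bases, positions 18 and 21, so that reads of each pair could be separated only by these bases. miR-212-3p and miR-132-3p differ at 5 bases.

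The hairpin of miR-10b lies at chr2:74726070-74726137 on the plus strand, in introns of Hoxd3 and Hoxd4. The hairpin of miR-21a lies at chr11:86584067-86584158 on the minus strand, in an exon of Vmp1. The hairpin of miR-34b lies at chr9:51103562-51103645 on the minus strand, inside an intron of Btg4, which is on the opposite strand. The miR-34c hairpin lies close by at chr9:51103034-51103110, also in a Btg4 intron on the opposite strand (GENCODE annotation). The hairpin of miR-146b lies at chr19:46342762-46342870 on the plus strand, in an intron of Mfsd13a. That of miR-150 lies at chr7:45121757-45121821 on the plus strand, in no other annotated gene (GENCODE annotation). The hairpins of miR-210 (chr7:141221384-141221493, minus strand) and miR-503 (chrX:53053984-53054054, minus strand) also lie in no other gene. miR-340 (chr11:50069702-50069799, plus strand) lies in an intron of Rnf130, and miR-212 (chr11:75173388-75173478, plus strand) in an intron of 1700016P03Rik.

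The library totals ranged from 2053246 to 3264576 counts in the irradiated group and from 1944992 to 3647077 in the sham group (exact permutation test, two-sided, p = 0.391; 0.392 adjusted over the 2 library measures). The number of miRNAs detected had a median of 508 in irradiated and 496 in sham libraries (exact permutation test, two-sided, p = 0.392). miR-126a-3p, of endothelium, and miR-1a-3p, of heart muscle, were the most abundant miRNAs, so that the miRNAs of heart muscle were present at the level the tissue label calls for. miR-126a-3p took 29.5 to 37.1% of the counts in irradiated and 28.2 to 35.2% in sham libraries, and miR-1a-3p 20.1 to 22.8% and 20.9 to 28.9%. Quantile normalisation fixed the log2 change of both at 0.00 because they held the top ranks throughout. The log2 change of let-7f-5p also came out at 0.00.

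Irradiated C57 hearts differed from sham hearts in few miRNAs, more of them higher than lower. Of the 312 miRNAs tested, 11 passed the adjusted p-value (3.53%), 10 of them higher (3.21%) and 1 lower (0.321%) in irradiated hearts. The number lower depended on the tool, with 10 higher and 4 lower by edgeR and by voom with TMM scaling, 11 and 7 by DESeq2, and 15 and 2 with library-size scaling. With the fold minimum 3 remained (0.962%), miR-10b-5p, miR-21a-3p and miR-34c-5p, all higher. At an unadjusted p-value under 0.05 there were 44, of which 25 were higher and 19 lower. The median log2 change over all 312 was 0.00 with an SD of 0.45. Quantile normalisation gives every library the same distribution and so keeps this median near 0. With library-size scaling the median was 0.08. In 4 miRNAs (1.28% of those tested), miR-10b-5p, miR-21a-5p, miR-21a-3p and miR-146b-5p, every irradiated library lay above every sham library, and in 0 miRNAs (0%) did every irradiated library lie below every sham library.

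**Figure D1:**
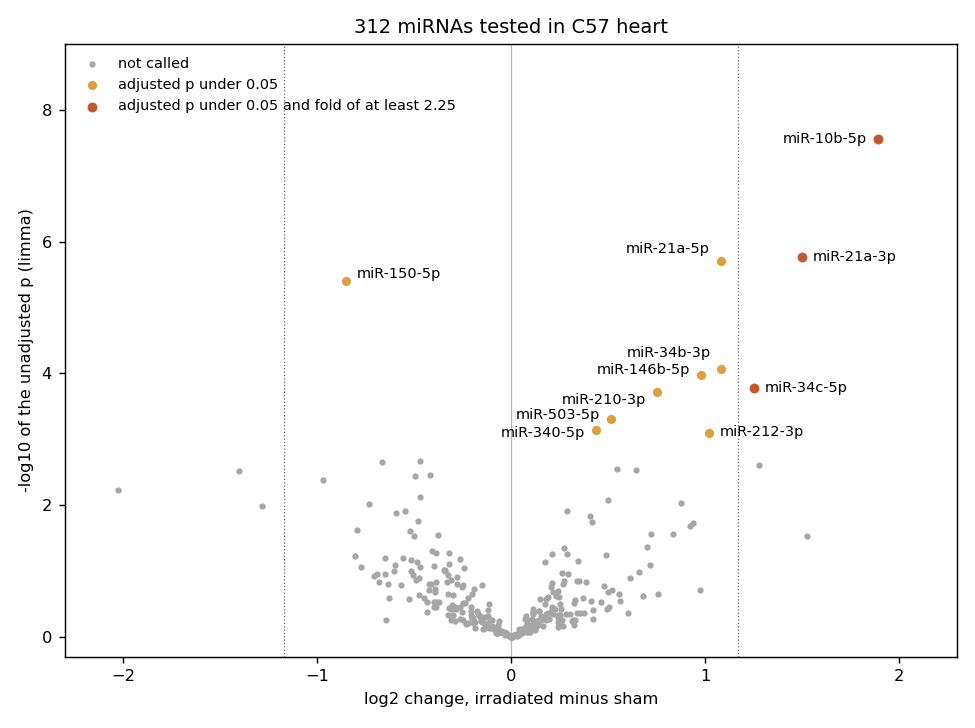
Each point is 1 of the 312 tested miRNAs, with the log2 change (irradiated minus sham) on the horizontal axis and -log10 of the unadjusted limma p-value on the vertical axis. Orange points passed the adjusted p-value, red points also the fold minimum marked by the dotted lines, and miR-150-5p is the only coloured point left of 0.

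miR-10b-5p, which is encoded in the Hoxd cluster, had the largest change of the 11 called miRNAs. It measured 195.6, 211.0, 190.7, 156.2 and 153.4 RPM in irradiated replicates 1 to 5, against a lowest, median and highest sham value of 25.95, 48.4 and 90.07 RPM. The means were 181 ± 25.4 RPM (SD, n = 5) and 49.6 ± 17.7 RPM (SD, n = 15). All 5 irradiated libraries lay above the highest sham library, with no overlap. The log2 change was 1.89 (SE 0.264, limma adjusted p = 8.66e-06). Its near-identical relative miR-10a-5p, encoded in the Hoxb cluster, measured 173.1 to 237.1 RPM in irradiated and 85.2 to 256.2 RPM in sham hearts, and those ranges overlapped. Its log2 value was 0.49 (SE 0.249, limma adjusted p = 0.362), but it was lower in sham males than in sham females (-0.80), and among males alone it was called at 0.83 (0.0359).

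The other miRNAs of the Hox clusters were under the filter on low counts and are described by their counts, although miR-10b-3p and miR-196b-5p were tested and called higher with the fold minimum when a filter of 1 count in any library was used. miR-10b-3p, the opposite arm of miR-10b, had 0, 3, 4, 5 and 5 counts in irradiated replicates 1 to 5, and 0 to 2 counts in sham libraries, 9 of which had 0. miR-196b-5p, encoded in the Hoxa cluster, had 25, 8, 7, 8 and 0 counts in irradiated replicates 1 to 5 and 0 to 3 counts in sham libraries, 10 of which had 0. Both were low in sham hearts, and the irradiated female had 0 counts of miR-196b-5p, which allows up to 1.46 RPM (3 counts of its total, counting error only).

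Both arms of miR-21a, whose targets include Pdcd4, rose. The abundant arm miR-21a-5p measured 20187, 17150, 17557, 10765 and 15818 RPM in irradiated replicates 1 to 5, and 5051, 7515 and 9614 RPM as the lowest, median and highest sham values. Its log2 change was 1.08 (SE 0.189, limma adjusted p = 2.01e-04). The scarce arm miR-21a-3p measured 10.21, 7.62, 12.21, 10.11 and 10.23 RPM in irradiated hearts and 1.41, 3.45 and 5.93 RPM as the lowest, median and highest in sham. Neither arm overlapped between the groups, although irradiated replicate 4 was close to the sham range for the 5p arm. miR-21a-3p changed by 1.50 on the log2 scale (SE 0.259, limma adjusted p = 2.01e-04), from 21 to 37 counts per irradiated library against 5 to 18 per sham library.

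The miR-34b/c hairpins yielded 2 called miRNAs. miR-34c-5p measured 122.3, 104.0, 143.2, 59.1 and 132.5 RPM in irradiated replicates 1 to 5, and 22.9, 36.0 and 85.5 RPM as the lowest, median and highest in sham. Irradiated replicate 4 fell inside the sham range and the other 4 lay above it. The log2 change was 1.25 (SE 0.296, limma adjusted p = 0.00734). miR-34b-3p measured 6.19, 5.96, 6.27, 3.98 and 3.41 RPM against 1.10, 1.70 and 5.48 RPM, with 3 of 5 irradiated libraries above all sham libraries. Its log2 change was 1.08 (SE 0.243, limma adjusted p = 0.00537), and it rested on 7 to 20 counts per irradiated and 3 to 18 per sham library.

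The other members of the family did not pass the test in the fit to all heart libraries. miR-34b-5p had a log2 value of 1.28 (SE 0.389, limma adjusted p = 0.0537), with 11.03 to 22.4 RPM in irradiated and 2.197 to 16.1 RPM in sham libraries, and it was called by edgeR (adjusted p = 0.0421), DESeq2 (0.0235) and voom with TMM scaling (0.0431), and with C57 libraries fitted alone (0.00986). miR-34a-5p, the most abundant of the family in these hearts, measured 446.9 to 761.7 RPM in irradiated and 274.2 to 538.6 RPM in sham hearts, with a log2 value of 0.41 (SE 0.158, limma adjusted p = 0.153), and it was called with library-size scaling (0.54, adjusted p = 0.0165). miR-34c-3p had 0.56 (limma adjusted p = 0.617), and 1.02 in males alone (0.161). Over the p53-linked list (miR-34, miR-192, miR-194 and miR-215), 2 of 8 tested miRNAs were higher, beside 3.21% of all miRNAs tested, 0 were lower and the median log2 value was 0.48 (0.75 in males alone), beside 0.00 over all miRNAs tested. TMM and library-size scaling each called 3 of the 8 higher, beside 10 and 15 of all 312 miRNAs.

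miR-34b and miR-34c are also abundant in ciliated epithelium of the airways, and lung tissue next to the heart is rich in them. In sham C57 lung the median was 7740 RPM for miR-34c-5p and 81.8 RPM for miR-34b-3p. The summed ciliated epithelium list (miR-34b/c and miR-449) was 77.8 to 178 RPM in irradiated and 28.8 to 123 RPM in sham hearts, with 2 of 4 tested members higher (3.21% over all miRNAs), and 9200 RPM at the median in sham lung. Of the members not tested, miR-449a-5p, which is known from ciliated cells, stood at a median of 0.487 RPM in irradiated and 0.283 RPM in sham hearts, and miR-449a-3p and miR-449c-5p at a median of 0 in both. These medians lay under the level of 3 counts in every library (0.823 RPM at the lowest), too low to compare the groups. The broader epithelial list had 0 of 8 tested members called (3.53% over all miRNAs), at 106 to 163 RPM summed in irradiated and 76.3 to 370 RPM in sham hearts. In males alone 1 member, miR-182-5p, was called (1.18, limma adjusted p = 0.0359), beside 8.77% of all miRNAs tested there. The part of airway tissue in the miR-34b/c values was not tested beyond these lists.

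**Figure D2:**
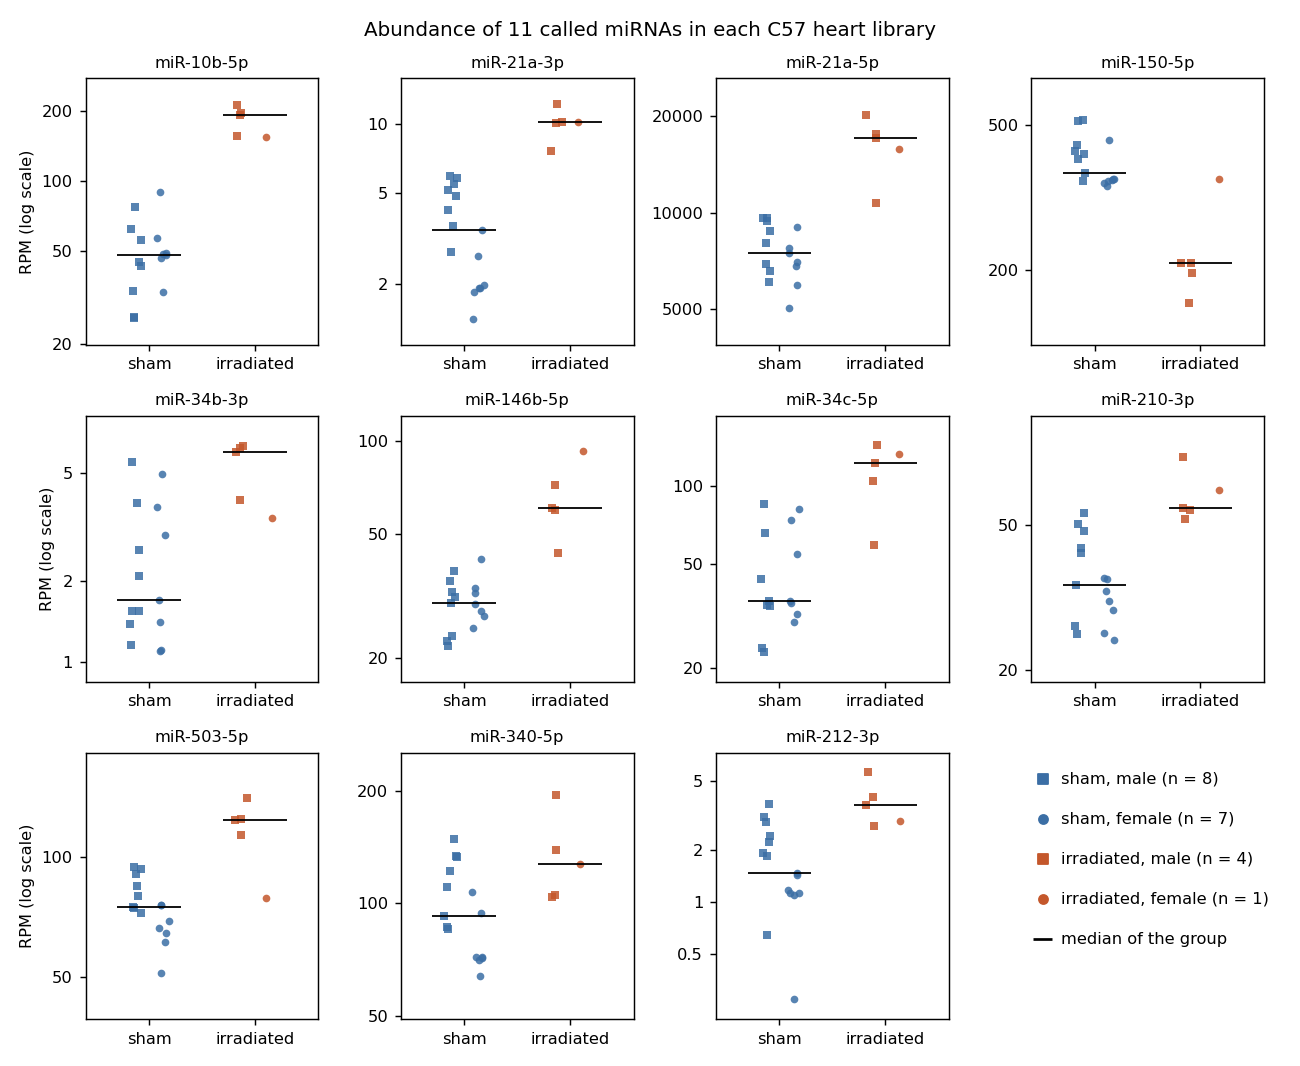
Each panel plots the RPM of 1 of the 11 called miRNAs on a log axis in every library, with irradiated and sham libraries apart and males and females marked. All irradiated points sit above all sham points for miR-10b-5p, both miR-21a arms and miR-146b-5p, and the 4 irradiated males sit below all sham points for miR-150-5p.

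miR-150-5p, which is known from mature B, T and natural killer lymphocytes, was the 1 miRNA called lower. It measured 208.9, 162.0, 195.6, 208.3 and 353.6 RPM in irradiated replicates 1 to 5, against 339.2, 367.1 and 514.5 RPM as the lowest, median and highest in sham. The 4 irradiated males lay below every sham library and the irradiated female lay within the sham range, where sham females measured 339.2 to 453.9 RPM. The log2 change was -0.85 (SE 0.155, limma adjusted p = 3.12e-04). The other lymphocyte miRNAs tested did not pass: miR-155-5p, of activated lymphocytes and macrophages, had a log2 value of 0.29, and miR-342-3p 0.21. The list therefore had 1 of 3 tested members lower, beside 0.321% of all miRNAs tested, and 0 higher.

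miR-146b-5p, which like miR-146a-5p targets Traf6 and Irak1, rose. It measured 60.7, 71.9, 59.7, 43.5 and 92.5 RPM in irradiated replicates 1 to 5, and 21.8, 30.2 and 41.6 RPM as the lowest, median and highest in sham. The groups did not overlap, with irradiated replicate 4 nearest to the sham range. The log2 change was 0.98 (SE 0.223, limma adjusted p = 0.00557). miR-146a-5p measured 780.5 to 1177 RPM in irradiated and 350.2 to 831.2 RPM in sham hearts, and its log2 value of 0.34 (SE 0.184, limma adjusted p = 0.398) did not pass with quantile normalisation. It was 0.64 with TMM scaling (adjusted p = 0.0567) and 0.71 with library-size scaling (0.0141), where it was called. Among the myeloid and pan-leukocyte miRNAs, to which both belong, quantile normalisation called only miR-146b-5p, 1 of 6 tested, beside 3.53% of all miRNAs tested. The same held with TMM scaling, where 14 of all 312 miRNAs were called. Library-size scaling also called miR-146a-5p and miR-223-5p (0.98, adjusted p = 0.0141), 3 of the 6, beside 17 of all 312 miRNAs. The list had a median log2 value of 0.62, and of 0.38 in males alone, and its sum was 2372 to 3124 RPM in irradiated and 1225 to 2620 RPM in sham hearts, of which sham males spanned 1822 to 2620 RPM. miR-223-3p of neutrophils had 0.33 (limma adjusted p = 0.668) and miR-142a-3p of all leukocytes 0.72 (0.222), and in males alone they had 0.10 and 0.32. The part of leukocyte number in the miR-146b-5p and miR-150-5p values was not tested.

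The other 4 called miRNAs changed less or were scarce. miR-210-3p, the hypoxia-linked miRNA, measured 55.1, 55.7, 51.8, 76.6 and 62.3 RPM in irradiated replicates 1 to 5 and 24.2, 34.2 and 53.7 RPM as the lowest, median and highest in sham. Irradiated replicate 3 fell just inside the sham range and the others lay above it. Its log2 change was 0.75 (SE 0.179, limma adjusted p = 0.00734), and it was not called in males alone (0.0958). miR-503-5p, clustered with miR-322 on chromosome X and known for repressing cell cycle genes, measured 78.9 to 140.0 RPM in irradiated and 51.2 to 94.5 RPM in sham hearts. Only the irradiated female fell inside the sham range. The log2 change was 0.52 (SE 0.134, limma adjusted p = 0.0168).

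miR-340-5p measured 103.8 to 194.7 RPM in irradiated and 63.7 to 148.6 RPM in sham hearts, and its groups overlapped in all but 1 irradiated library (log2 change 0.44, SE 0.117, limma adjusted p = 0.0222). It was not called by edgeR (0.153) or DESeq2 (0.0924), nor with TMM (0.145) or library-size scaling (0.168). miR-212-3p, known with miR-132-3p from cardiac hypertrophy, measured 4.02, 3.64, 5.61, 2.76 and 2.92 RPM in irradiated replicates 1 to 5 and 0.275, 1.47 and 3.71 RPM as the lowest, median and highest in sham. It had 6 to 17 counts per irradiated and 1 to 10 per sham library, so that counting error alone was large, and 3 irradiated libraries lay inside the sham range. The log2 change was 1.02 (SE 0.276, limma adjusted p = 0.0225), and it was not called with a sex term (0.0839) or in males alone (0.109). With C57 libraries fitted alone miR-212-3p fell under the count filter, so that it was tested only with the C3H heart libraries included or in subsets. Its neighbour miR-132-3p, a mature miRNA encoded 280 bases away, had 0.26 (limma adjusted p = 0.745).

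The miRNAs with the next smallest p-values did not pass the test in the fit to all 35 heart libraries, and their values are given as such. On the higher side, miR-434-5p stood at 0.55, miR-9-5p at 0.65, miR-7a-5p at 0.50 and miR-376b-3p at 0.88 on the log2 scale. On the lower side, miR-125b-2-3p stood at -0.47, miR-574-3p at -0.66, let-7e-3p at -1.40, miR-139-5p at -0.42, miR-26a-5p at -0.50, miR-676-3p at -0.97, miR-329-5p at -2.02, let-7c-1-3p at -0.47 and miR-328-3p at -0.73. The limma adjusted p-values of these miRNAs lay between 0.0537 and 0.120. The value of miR-329-5p rested on 0 to 5 counts per irradiated and 1 to 14 per sham library. miR-329-5p (log2 male minus female -1.47), miR-7a-5p (-0.61) and miR-434-5p (0.43) also differed between the sexes in sham hearts, and with a sex term their irradiation values were -1.60, 0.63 and 0.43. Other tools called some of the lower ones: miR-125b-2-3p had an adjusted p of 0.0433 with edgeR, 0.0251 with DESeq2 and 0.0420 with TMM scaling, miR-574-3p had 0.0421, 0.00902 and 0.0431, and miR-139-5p had 0.0374, 0.00290 and 0.0286. miR-676-3p was called by DESeq2 (0.0162) and with library-size scaling (0.0443), but it differed between the sexes in sham hearts (log2 male minus female -1.16) and stood at -0.41 in males alone (0.194) and -0.71 with a sex term (0.127). C57 libraries fitted alone called miR-574-3p (0.0365), miR-139-5p (0.0273), miR-26a-5p (0.0378) and let-7c-1-3p (0.0470), a letter term called miR-125b-2-3p (0.0463) and miR-574-3p (0.0291), and males alone called let-7c-1-3p (0.0290). Also, miR-328-3p was called by DESeq2 (0.0251). On the higher side, miR-7a-5p was called with library-size scaling (0.0169) and with a sex term (0.0141), and miR-9-5p with a sex term (0.0482).

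The lists of the main heart cell types held few miRNAs, and with 3.53% of all miRNAs called, a count of 0 in a list this short is near the background. The cardiac and skeletal muscle list had 0 of 9 tested members called and a median log2 value of -0.10, and in males alone the median was -0.43 with 1 member called. miR-1a-3p is counted among the 9 although quantile normalisation fixed its log2 change at 0.00. TMM and library-size scaling also called 0 of the 9, with medians of -0.15 and -0.08. miR-208a-3p, which lies in an intron of the myosin gene Myh6, measured 4657, 6493, 8045, 10211 and 2569 RPM in irradiated replicates 1 to 5 and 970, 5921 and 19938 RPM as the lowest, median and highest in sham, and the groups overlapped (log2 0.42, limma adjusted p = 0.800). Among males alone its value had the other sign, -0.41 (0.456), and this miRNA differed strongly between the sexes in sham hearts. miR-1a-3p measured 200716 to 227579 RPM in irradiated and 208962 to 289279 RPM in sham hearts. Under scalings that leave the top ranks free its log2 value was -0.26 (TMM, limma adjusted p = 0.588) and -0.19 (library size, 0.718).

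Of the endothelial list 0 of 2, of the smooth muscle list 0 of 3 and of the fibroblast list (miR-199 and miR-214) 0 of 6 tested members were called, with median log2 values of 0.09, 0.12 and -0.33, and of -0.06, -0.20 and -0.37 in males alone. miR-126a-3p of the endothelial list could not be called, since quantile normalisation fixed its log2 change at 0.00. With TMM and library-size scaling 0 of the 2 endothelial members were called, and their medians were 0.14 and 0.21. The erythrocyte list (miR-451a, miR-144 and miR-486) had 0 of 6 called and a median of -0.35. Families known from fibrosis and growth control had no called member and list medians within 0.15 of 0: miR-29, which represses collagen genes, had 0 of 5 called and a median of 0.10 (-0.22 in males alone), miR-30 had 0 of 7 and 0.02 (miR-30e-5p was called in males alone, 0.30, adjusted p = 0.0363), and let-7 had 0 of 9 and 0.00. The let-7 median was the value of let-7f-5p, which quantile normalisation held at 0.00. With TMM and library-size scaling the let-7 median was -0.05 and 0.02. The miR-15/16 family had 0 of 6 and 0.05 (miR-322-5p was called with library-size scaling), the miR-17-92 and miR-106b-25 clusters 0 of 9 and 0.15 (-0.07 in males alone), and miR-23/24/27 0 of 5 and 0.07 (-0.06 in males alone). miR-221 and miR-222 had 0 of 4 and 0.00 (0.28 in males alone). The list of the imprinted Dlk1-Dio3 cluster had 0 of 21 tested members called, with log2 values from -0.79 to 0.88. That list did not hold every tested miRNA of the cluster: it held miR-329-3p but not the opposite arm miR-329-5p, which stood at -2.02. The brain list had 0 of 4 called and a median of 0.65, the liver list 0 of 1 and the pancreas list 0 of 1.

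**Figure D3:**
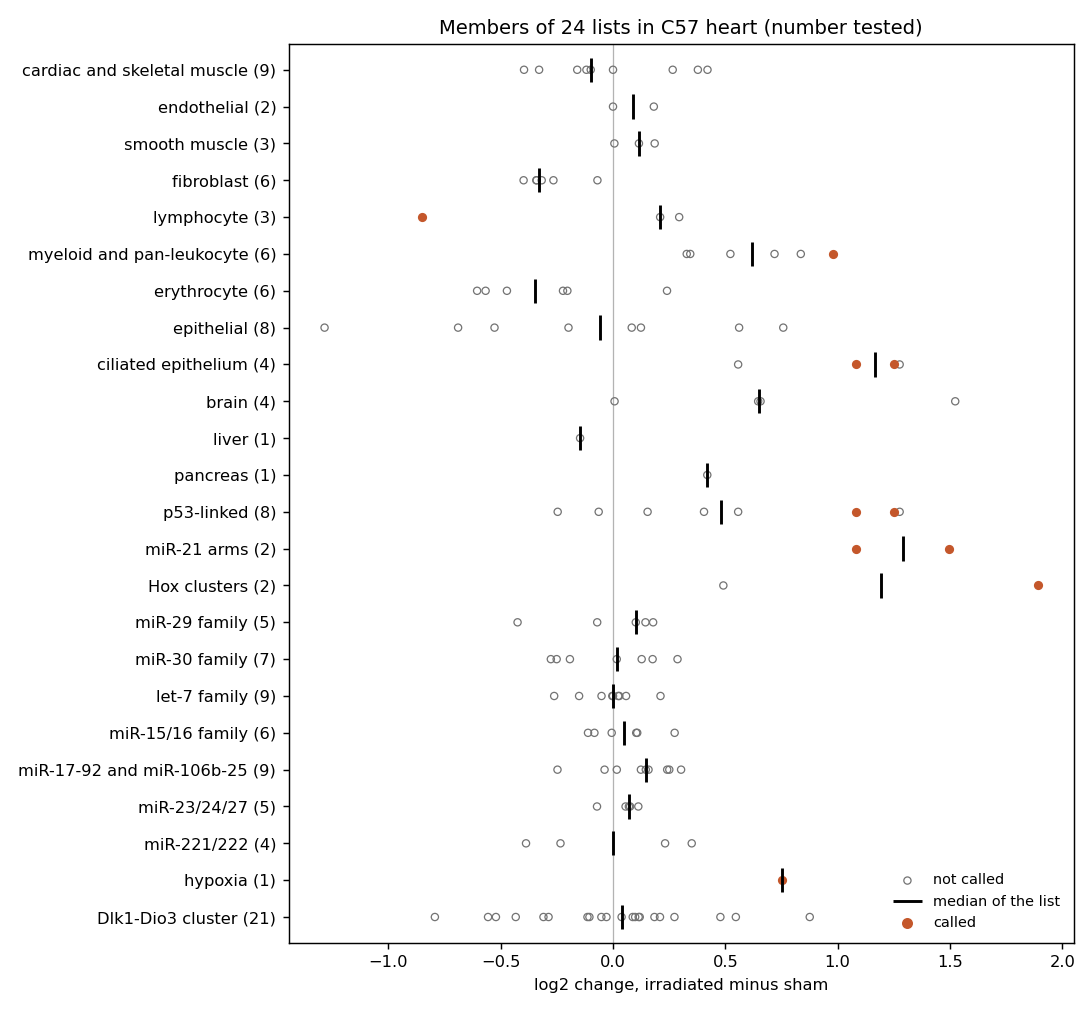
Each point is the log2 change (irradiated minus sham) of 1 tested miRNA, grouped by list, with called miRNAs coloured and the list median marked. Called miRNAs appear in the lists of miR-21 arms, Hox clusters, p53-linked, ciliated epithelium, hypoxia, myeloid and lymphocyte miRNAs.

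Males and females stood apart among the C57 hearts, and the sexes were not balanced between the groups. The first principal component of the tested miRNAs, with 41.5% of the variance, ran from -13.2 to 1.27 in sham males and from 4.94 to 12.2 in sham females. The irradiated female stood at 4.97 and the irradiated males between -6.08 and 0.53. The second component (10.7%) stood at 4.47 to 6.26 in the irradiated libraries and at -3.82 to 1.61 in the sham libraries, with no overlap. In sham hearts 128 of 367 miRNAs (34.9%) differed between males and females, 66 higher and 62 lower in males. They included miR-208a-3p (log2 male minus female 2.51), miR-208b-3p (1.89) and miR-31-5p (-0.98). Of the 11 miRNAs called for irradiation, 0 differed between sham males and females (limma, adjusted p-value under 0.05), and 2, miR-21a-3p (0.66) and miR-10b-5p (-0.57), did at an unadjusted p-value under 0.05.

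**Figure D4:**
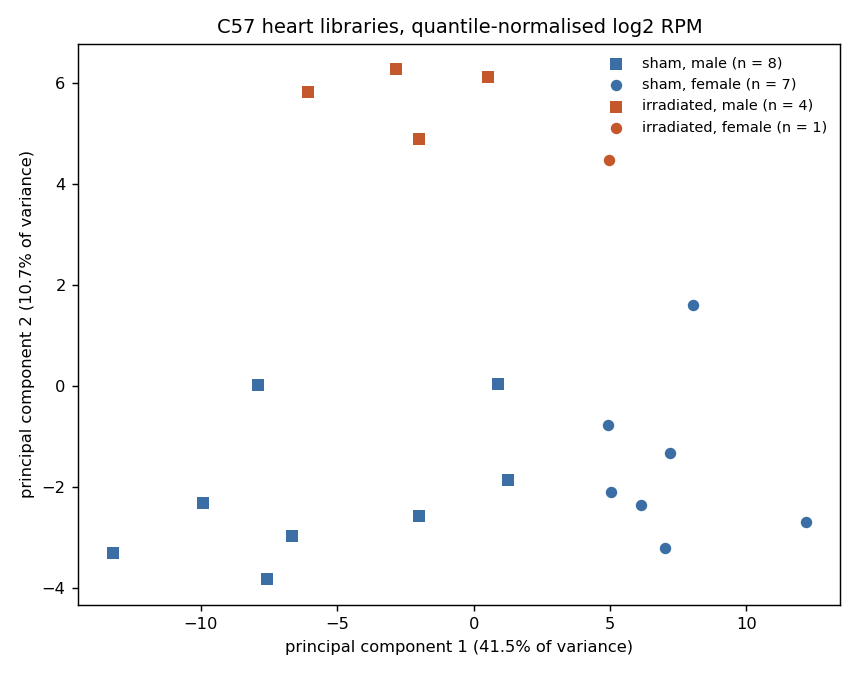
The first 2 principal components of the 20 C57 heart libraries, from log2 values of the tested miRNAs, with irradiation by colour and sex by marker. Males and females separate along the first component, and irradiated libraries lie above sham libraries along the second.

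Among males alone, 4 irradiated against 8 sham, 25 of 285 miRNAs were called (8.77%), 19 higher and 6 lower, and 8 of the 25 were among the 11 called over both sexes. miR-10b-5p changed by 2.17 (SE 0.236, limma adjusted p = 1.81e-04), miR-150-5p by -1.06 (1.81e-04) and miR-146b-5p by 1.11 (0.00582). In males miR-10a-5p passed as well, at 0.83 (0.0359), as did miR-7a-5p at 0.87 (0.00703), miR-223-5p at 1.00 (0.0359), miR-182-5p at 1.18 (0.0359) and miR-9-3p at 1.33 (0.0418). miR-133b-3p, a muscle miRNA, was lower at -0.45 (0.0253), and miR-204-5p at -0.81 (0.0359). Of these 25 miRNAs, 7 differed between sham males and females. With 1 irradiated female, the response of females could not be tested on its own.

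The same contrast in C3H heart (7 irradiated and 8 sham females, month 4) called 52 of the 312 miRNAs (16.7%), and 21 with the fold minimum (6.73%). Of the 11 miRNAs called in C57 heart, 10 were among the 52 called in C3H heart, and miR-340-5p was the exception with 0.19 (limma adjusted p = 0.256). miR-10b-5p was close in size in both strains, 1.89 in C57 and 2.14 in C3H. miR-150-5p stood at -0.85 in C57 and -1.63 in C3H, miR-34c-5p at 1.25 and 2.43, and miR-34b-3p at 1.08 and 2.21. miR-34a-5p, not called in C57, was at 1.27 in C3H.

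The strain difference itself was tested as C57 minus C3H. limma called 0 of 312 miRNAs (0%), with 51 at an unadjusted p-value under 0.05, edgeR called 0 and DESeq2 called 4. The 4 were miR-34c-5p (-1.36), miR-34c-3p (-2.21), miR-34a-5p (-0.92) and miR-541-5p (-1.07), all less positive in C57. By limma the difference was -1.17 for miR-34c-5p (adjusted p = 0.178), -1.13 for miR-34b-3p (0.0714), 0.78 for miR-150-5p (0.0624) and -0.25 for miR-10b-5p (0.701). Strain, month and sex differ together between these cohorts and cannot be told apart.

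In the lung of the same C57 animals, 58 of 350 miRNAs were called (16.6%), and limma called 0 in brain, WBC and RBC (0% each), with 53, 12 and 14 at an unadjusted p-value under 0.05 in these 3, where no other tool was run. miR-10b-5p was higher in lung by 2.11 (limma adjusted p = 1.40e-09), where it measured 88.6 to 242 RPM in irradiated and 18.4 to 58.7 RPM in sham animals. miR-21a-3p was higher in lung by 1.41 (0.00373) and miR-146b-5p by 0.94 (0.0356), and for both the lung groups overlapped. miR-21a-3p measured 38.1 to 186.4 RPM in irradiated and 13.5 to 93.4 RPM in sham lung. For miR-146b-5p the ranges were 1230.4 to 3407.5 RPM and 740.7 to 6266.1 RPM. miR-10b-5p, miR-21a-3p and miR-146b-5p were the 3 called in both tissues, of the 10 heart miRNAs that could be tested in lung. miR-150-5p stood at -0.29 in lung (0.485) and miR-34c-5p at -0.09 (0.721). miR-21a-5p measured 80219 to 159132 RPM in irradiated lung and had a median of 33777 RPM in sham lung, where the highest library reached 236828 RPM, and its log2 value of 0.85 (0.136) did not pass. In the fit to heart and lung libraries together the lung value of miR-21a-5p was 1.74 (SE 0.344), and the cause of that shift was not tested.

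A direct test of the heart change minus the lung change called 21 of 374 miRNAs (5.61%), 10 more positive in heart and 11 less. Those more positive in heart included miR-34b-3p (1.47, SE 0.350, limma adjusted p = 0.00653), miR-34c-5p (1.43, 0.00653), miR-34b-5p (1.58, 0.0263) and miR-210-3p (0.91, 0.0125). miR-10a-5p also differed (1.56, 0.00653), being lower in irradiated lung. Those less positive in heart included miR-34a-5p (-0.80, 0.0226), which rose in lung by 1.17, and miR-7b-5p (-4.33, 2.26e-11). miR-7b-5p measured 0.514 to 12.7 RPM in sham and 2.32 to 7.79 RPM in irradiated hearts, which overlapped, while irradiated lung measured 306 to 1122 RPM against 10.8 to 33.1 RPM in sham lung.

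**Figure D5:**
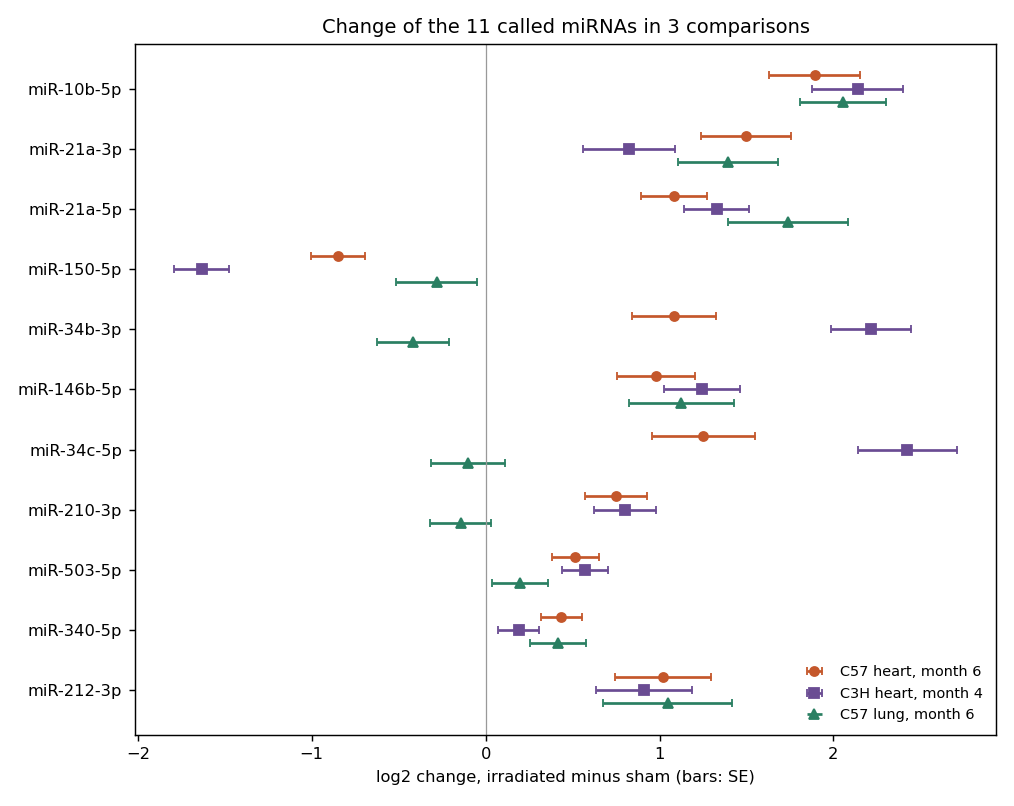
For each called miRNA, the log2 change (irradiated minus sham) is shown in C57 heart, C3H heart and C57 lung on a common axis with bars of 1 SE, the lung values being those of the fit to heart and lung together. miR-10b-5p lies near 2 in all 3, and miR-34c-5p and miR-34b-3p lie above 1 in both hearts and near or below 0 in C57 lung.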

How the data were processed

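Mouse heart RNA was extracted from 20 mg of homogenised tissue and sequenced as miRNA libraries (QIAseq). As the methods and labels describe, the authors aligned trimmed reads to mouse miRNAs (mm10 in the submitters' notes), rejected runs with few miRNA reads, and deposited raw counts per mature miRNA. Use of molecular identifiers was not given in the sources used here. The deposited counts were analysed with R 4.3.3 and limma 3.58.1. A miRNA was kept at 10 counts in the smallest group and 15 in total (filterByExpr of edgeR 4.0.16), and voom with quantile normalisation was fitted to all 35 heart libraries in 4 groups (strain by irradiation), which shared 1 estimate of spread. The heart minus lung test used 70 libraries in 8 groups, and the sex test 6 groups. The procedure was tested on simulated data. Single library values were tested by exact permutation over 15504 splits (scipy 1.17.1). Replicates were separate animals. Within-group library pairs differed beyond counting noise.

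Alternatives were edgeR, DESeq2 1.42.0, TMM and library-size scaling, a loose filter (1 count in any library), a strict filter (10 counts in every library), sex and label-letter terms, subsets, and leaving out each C57 heart library (for the strain and tissue differences, each of the 5 irradiated ones). The letter A or B in the labels divided the irradiated libraries 2 to 3 and the sham libraries 8 to 7, and its meaning is not given. Named miRNAs were those called, the others among the 25 smallest p-values, members of the lists, and those called with the fold minimum in C57 lung or C3H heart or in the strain and tissue differences (the 10 smallest p-values). Others named, including miR-34c-3p in the strain difference, those under the low-count filter and those called in males alone, were chosen after their values were seen. The members and lists were chosen with earlier results of these data known.

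Pairing of heart and lung came from the animal number in the labels. Deviations of the 2 tissues from their group means correlated per animal at -0.211 to 0.571 (median 0.180, 20 animals, 13 over 0.1).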

Additional observations from a re-analysis of the deposited data

Results flagged for a closer look

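In the irradiated group, 27 sets of values of 5 libraries were examined for a library standing apart by Dixon's criterion, and 2 were found, where chance gives about 1 in 20. The miR-150-5p level of irradiated replicate 5, the 1 female, was 353.6 RPM, above the other 4 at 162.0 to 208.9 RPM. The total of the same library was 2053246 counts, below the other 4 at 3018441 to 3264576. Whether sex, depth or another property of this animal goes with its miR-150-5p level was not tested.

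The response to irradiation differed between heart and lung of C57 mice for the miRNAs below, by the test of the difference itself (limma, log2 change in heart minus that in lung). More positive in heart were miR-598-3p (1.82), miR-34b-5p (1.58), miR-10a-5p (1.56), miR-34b-3p (1.47), miR-34c-5p (1.43), miR-210-3p (0.91) and miR-30a-5p (0.77). Less positive in heart were miR-7b-5p (-4.33), miR-335-3p (-1.21), miR-139-5p (-1.21), miR-541-5p (-1.09), miR-322-5p (-1.02) and miR-125b-2-3p (-0.76).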

How the results depend on the processing

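No miRNA called in either fit changed direction in males alone, but 35 of the 121 list members tested in both had the opposite sign there, miR-208a-3p among them, and 0 of these 35 were called. The 35 include miR-143-3p, whose value in males was 0 to rounding. The count of 11 calls became 18 with DESeq2 (11 higher, 7 lower), 17 with library-size scaling (15 and 2), 28 with the loose filter (23 and 5), 25 in males alone and 19 with C57 libraries alone (13 and 6), while edgeR and TMM each gave 14 (10 and 4), the strict filter 12 (8 and 4), a letter term 13 (10 and 3), a sex term 11 and a sex and letter term, added after seeing the data, 10. The count of 3 with the fold minimum became 5 with library-size scaling, 11 with the loose filter (3 of them lower), 6 in males, 6 in letter A (1 lower, let-7e-3p), 2 with the strict filter and 1 in letter B, and 4 with edgeR, DESeq2, TMM and C57 libraries alone, where miR-34b-5p was added. Leaving out 1 library gave 9 to 17 and 3 to 5 calls, the highest being 17 without sham replicate 11 and 5 without sham replicate 13, and let-7e-3p was called lower with the fold minimum without irradiated replicate 3 or sham replicate 8. The strain count of 0 became 4 with DESeq2, 5 with the loose filter and 1 with a letter term, and was 0 to 0 when each of the 5 irradiated C57 libraries was left out. The heart minus lung count of 21 became 12 with library-size scaling, 44 with the loose filter, 11 with the strict filter, 16 to 20 without 1 of the 5 irradiated heart libraries and 12 to 16 without 1 irradiated animal in both tissues (12 without irradiated replicate 1), and was 21 with the animal as a replicate block (consensus correlation 0.057), with the same 21 miRNAs called in both, and which changed no other call. The cause of these shifts was not tested. Library-size scaling moved the median of all miRNAs by 0.08 and DESeq2 by -0.06.

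miR-21a-5p and miR-21a-3p were called in every alternative in which they were tested. Within letter A 16 miRNAs were called, 6 of them among the 11, and within letter B 2, the miR-21a arms; miR-10b-5p was 1.96 and 1.85 there (adjusted p = 0.0622 in B), miR-21a-5p 1.07 and 0.99, miR-150-5p -1.13 and -0.69 and miR-34c-5p 1.36 and 1.20, with miR-34c-5p called in neither. miR-210-3p lost its call without irradiated replicate 4 (adjusted p = 0.0598) and in males (0.0958), miR-503-5p without irradiated replicate 2, 3 or 4 (at most 0.109), miR-340-5p with edgeR (0.153), DESeq2 (0.0924), TMM (0.145), library-size scaling (0.168), a sex term (0.0560), a sex and letter term (0.0567), in males (0.0770) and without irradiated replicate 1 or 3 (at most 0.165), and miR-212-3p with a sex term (0.0839), a sex and letter term (0.0855), in males (0.109) and without irradiated replicate 1, 2 or 3 (at most 0.105). Depth limited miR-212-3p, miR-34b-3p and miR-21a-3p, which the strict filter removed. miR-212-3p also fell under the count filter with C57 libraries alone and within letter B, and was not tested there.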
